A study of Mus musculus with 8 samples.

Results

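Fibroblast growth factors (FGFs), their receptors and the genes that report and restrain the ERK kinase pathway were followed through the formation of the mouse nephric duct. The set holds 39 genes of the 34837 gene names on the array: 18 secreted FGF ligands, 4 intracellular FGF homologues, 5 receptor genes, 2 adaptors and 10 feedback and ERK target genes. They were taken by name, each read by the probe with the highest mean level among its probes, and 17 of the 39 had more than 1 probe. A level is the log2 signal relative to the 75th percentile of its array, and levels are compared only within a probe.

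The 8 arrays held sorted cells of ICR mouse embryos. Hoxb7-GFP cells, the duct precursors that later form the ureteric bud of the kidney, came from E8.75 (1 array, whole), E9.5 (2 arrays), E10.5 (2 arrays) and E11.5 (1 array of the ureteric bud). At E9.5 and E10.5 the embryo was divided, and the arrays hold the rostral part and the caudal part. All of the duct samples except the E8.75 sample are labelled as negative for Flk1 (Kdr), the endothelial receptor. Wt1-GFP cells of the neighbouring intermediate mesoderm came from E9.5, again as a rostral and a caudal part, with no Flk1 selection in the label. Each sample had 10 ng of total RNA amplified before labelling, and the labels give neither the number of embryos pooled nor replicates of a part.

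FGF ligands bind receptor tyrosine kinases together with heparan sulphate, the receptors recruit the adaptor Frs2, and the signal passes through Ras to ERK. ERK in turn switches on transcription factors of the Etv group and inhibitors such as the Sprouty, Spred and dual-specificity phosphatase genes, which damp the same signal. In the developing kidney, FGF signals act in both the ureteric bud and the nephron progenitors, and in the bud they run beside the signal of the receptor Ret.

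The arrays correlated at 0.923 to 0.964, the share of probes well above background ran from 60.6% to 69.2%, and 0 probes were saturated. Of the 39 members, 27 were well above background on all 8 arrays, 7 on some and 5 on none. Those 5 were the ligands Fgf2, Fgf3, Fgf4, Fgf7 and Fgf16, so their differences are not described. These counts hold for the brightest probe: the other probe of Fgf23 was well above background on 1 array and that of Fgf6 on 0. The reporters sorted as labelled: Wt1 had levels of -0.15 and -1.86 in the Hoxb7-GFP cells of E9.5, against 4.14 and 4.09 in the Wt1-GFP cells, and the duct receptor Ret had -0.61 and 2.31, against -6.06 and -4.85. The endothelial markers stood apart at E8.75 by their summed level of 5.84. The other duct arrays had 2.85 to 3.52 and the Wt1-GFP arrays 2.96 and 2.92. Their count did not set E8.75 apart. All 14 were well above background at E8.75 and on the caudal duct array of E9.5, against 9 to 12 on the other duct arrays. The Wt1-GFP arrays had 8 and 6. Of 12 endoderm and yolk sac markers, 10 were well above background at E8.75, against 2 to 6 on the other duct arrays, and 11 of 12 were lower at E9.5 than at E8.75, with a median difference of -4.69, against -2.91 for the endothelial markers. On the E9.5 rostral duct array the coelomic and lateral plate markers summed to 3.04, against 0.58 to 1.58 on the other duct arrays and 4.90 and 4.36 on the Wt1-GFP arrays. The same array stood apart by neural markers, which summed to 7.28, against 5.10 to 5.76 on the other duct arrays and 5.48 and 5.17 on the Wt1-GFP arrays, and by heart markers, at 4.57, against 0.90 to 2.03 and 3.95 and 1.96. It also had the highest duct levels of Fgf5, Fgf13 and Fgf18. The part of these marker differences in the results below was not tested, and in bulk samples fewer cells of a type and less RNA per cell cannot be told apart.

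The probes decide what some member genes can show, so stretches of the probes that matter most are given first, as 30 bases of each 60-base probe with capitals for 3-base words found at least 3 times in the stretch. The brightest Fgfr1 probe and the Fgf23 probe are simple repeats and hardly varied over the arrays, whereas the second Fgfr1 probe, the Fgfr2 probe and both Fgfr4 probes are not.
Fgfr1, brightest probe (mm9 chr8:26685820-26685879, + strand): GTTTGTTTTTGTTTTTTGTTTGTTTGTTTG
Fgfr1, second probe (mm9 chr8:26684061-26684120): agtTGGTGGaagaccTGGaccgcattgTGG
Fgf23, brightest probe (mm9 chr6:127030758-127030817): cCACACACACACACACACACAtACAtgtaa
Fgfr2, brightest probe (mm9 chr7:137307473-137307532): atccACACAtAAAcggcagtgttAAAACAt
Fgfr4, brightest probe (mm9 chr13:55269212-55269271): tAAGCAGCTGGTGGAAGCtcTGGacAAGgt
Fgfr4, second probe (mm9 chr13:55270033-55270092): agaacatggcATTTTTataaATTATTTTTT
Fgf10, only probe (mm9 chr13:119580365-119580424): gATTcTTATTTcacTTTgccATTTAgATTA
Etv1, brightest probe (mm9 chr12:39593054-39593113): tgtatCTGgtgccatcCTGCTGttttggta
The brightest Fgfr1 stretch holds 4 distinct 3-base words, as few as 0.189% of the 55663 probes, and its level spanned only 0.35 over the 8 arrays. The Fgf23 stretch holds 10, as few as 1.04% of probes, and spanned 0.47. The median probe holds 19, so neither flat profile is read as a gene that did not change. Stretches with few distinct words also belong to the Fgf21 probe (10) and the Spry2 and Frs3 probes (12 each).

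**Figure D1:**
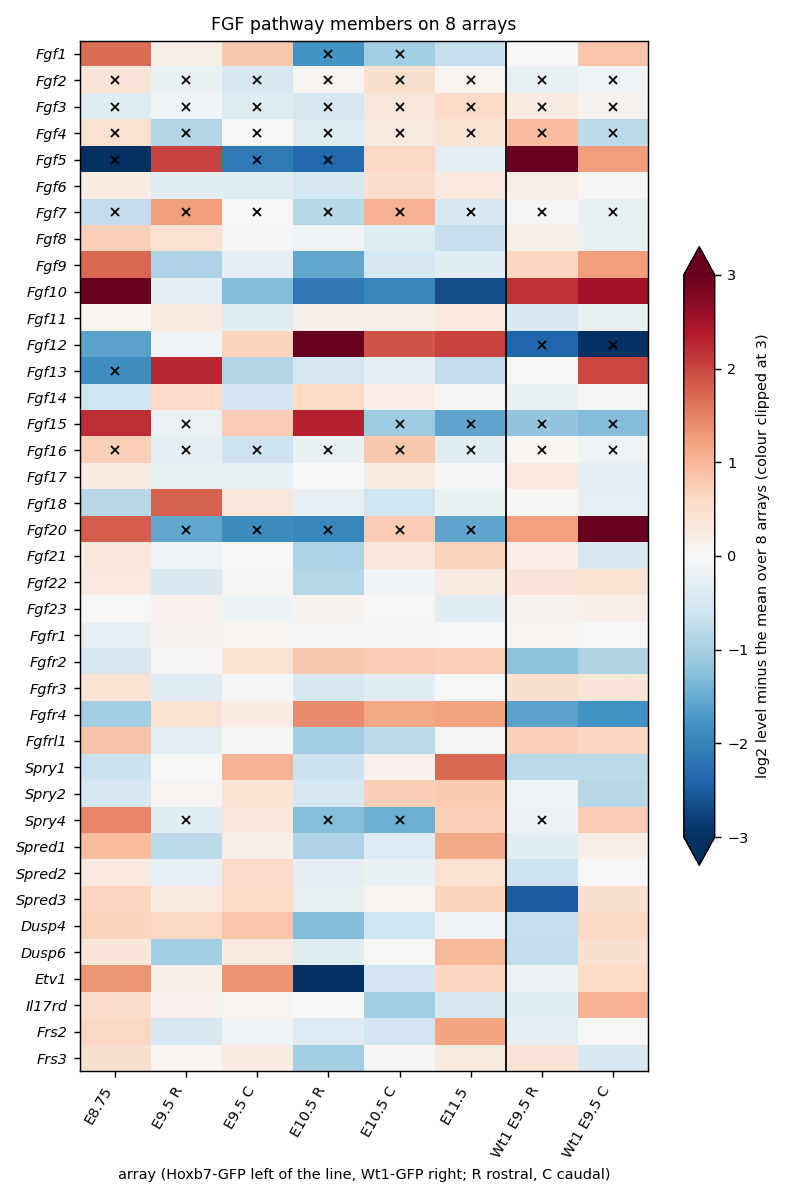
Level of each of the 39 members on the 8 arrays as the log2 difference from its mean over the arrays (colour, clipped at 3), with Hoxb7-GFP arrays left of the line and Wt1-GFP arrays right of it. A cross marks an array on which the probe was not well above background, which holds for all 8 arrays of Fgf2, Fgf3, Fgf4, Fgf7 and Fgf16.

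Fgf10, a ligand of the epithelial form of Fgfr2 that mesenchyme of the limb and lung is known to make, had the widest measured profile among members that were well above background on all 8 arrays. Its level was 2.49 at E8.75, -1.42 and -2.45 in the rostral and caudal duct of E9.5, -3.30 and -3.13 at E10.5, and -3.80 at E11.5. The Wt1-GFP cells had 1.04 and 1.36. The duct was thus lower than the mesoderm at E9.5 and lower at each later stage than at the one before, with no overlap of arrays. Hoxb7-GFP minus Wt1-GFP was -3.13 ± 0.43 (SE, n = 2 arrays each), a difference of 8.76-fold, and E9.5 minus E8.75 was -4.43 ± 0.53.

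Fgf9, known for keeping nephron progenitors, followed a similar course: it had 1.14 at E8.75, -1.5 and -0.85 at E9.5, -2.15 and -1.12 at E10.5 and -0.91 at E11.5, against 0.05 and 0.67 in the Wt1-GFP cells. The duct lay below the mesoderm by -1.53 ± 0.23 and E9.5 lay below E8.75 by -2.31 ± 0.28, and the arrays did not overlap in either. Fgf20, which acts with Fgf9 on nephron progenitors, was not well above background on any later duct array than E8.75, where its level was -3.18, and had -3.78 and -1.84 in the Wt1-GFP cells. The duct was at least 3.39-fold lower than the mesoderm at E9.5, and at least 2.62-fold lower than at E8.75. Its second probe, which overlaps the first in part and was well above background on 2 arrays only, gave -2.87 for the reporter difference. For E9.5 minus E8.75 it gave -1.70, with a level of only -4.52 at E8.75, so the bound for that step rests on 1 probe and 1 array of E8.75.

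Fgf18, a ligand known from bone and lung, differed the other way between reporters. It had -0.87 at E8.75, 1.72 and 0.30 at E9.5, -0.29 and -0.65 at E10.5 and -0.25 at E11.5, against -0.01 and -0.29 in the Wt1-GFP cells. E9.5 was thus the high point among the duct stages, with the rostral array above the caudal. The reporter difference was 1.16 ± 0.39 and the steps into and out of E9.5 were 1.89 ± 0.47 and -1.48 ± 0.39. The second Fgf18 probe gave 1.46, 1.57 and -1.60 for the same 3 differences, but it overlaps the first in part and is not fully independent of it.

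Fgf8, a ligand needed for nephron formation in the mouse, was a little lower at each duct stage than at the one before, with 1.67 at E8.75, 1.40 and 0.92 at E9.5, 0.87 and 0.58 at E10.5 and 0.26 at E11.5, and had 1.11 and 0.74 in the Wt1-GFP cells. Its stage steps of -0.50, -0.43 and -0.47 had standard errors of 0.20 to 0.25, and unadjusted p-values of 0.117, 0.103 and 0.138 in limma. The rostral array exceeded the caudal in 3 of 3 pairs, by 0.29 to 0.48. All of these values are from the brightest of 3 probes. The second, well above background on 8 arrays, gave stage steps of -0.39, -0.71 and -0.81 but far wider duct pairs. It read -0.95 at E8.75, -0.16 rostral and -2.52 caudal at E9.5, and -0.85 and -3.25 at E10.5. The third, above background on 4 arrays, gave steps of 0.03, -0.73 and -0.27. It was lower rostrally in the Wt1-GFP cells (-5.19 against -4.03).

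Fgf12 and Fgf13 are intracellular relatives that bind voltage-gated sodium channels instead of receptors. Fgf12 had -4.53 at E8.75, -3.01 and -2.24 at E9.5, 0.12 and -1.02 at E10.5 and -0.88 at E11.5, and was not well above background in the Wt1-GFP cells, which it exceeded at E9.5 at least 2.63-fold. The step to E10.5 was 2.18 ± 0.61. A second Fgf12 probe, above background only on the 3 arrays of E10.5 and E11.5, gave 2.57 for that step, starting from background. At E9.5 it was not well above background in either reporter, so its difference of -0.03 cannot decide the reporter difference. Fgf13 had -0.81 in the rostral duct of E9.5 and -3.96 in the caudal, against -4.95 at E8.75, where it was not well above background. The mean of the 2 E9.5 arrays exceeded E8.75 at least 5.61-fold on this probe, mostly through the rostral array. The second Fgf13 probe gave 0.69 for that step, with arrays that overlapped (-2.12 and -4.70 at E9.5, against -4.10 at E8.75).

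Among the dim ligands, Fgf5 ranged from -6.84 at E8.75 to 2.67 in the rostral Wt1-GFP cells. Only the rostral of the 2 duct arrays of E9.5 was well above background, at -0.47, so no fold over E8.75 is given. Fgf1, a ligand for all receptors of the family, had -1.70 at E8.75, -3.20 and -2.58 at E9.5 and was not well above background at E10.5, at least 2.91-fold lower than at E9.5. Its second probe stayed near -3.9 on these arrays, so the Fgf1 course rests on 1 probe. Fgf15, the mouse counterpart of the gut hormone FGF19, was well above background on 3 arrays only, E8.75 (-2.71), caudal E9.5 (-4.15) and rostral E10.5 (-2.58), so no fold between stages is given. Bounds for dim genes depend on the background correction. With normexp, which adds an offset of 50 to the signal, the Fgf20 differences were -0.89 between reporters and -0.62 for E9.5 minus E8.75, that of Fgf12 between reporters was 0.66, that of Fgf13 for E9.5 minus E8.75 was 0.84 and that of Fgf1 for E10.5 minus E9.5 was -0.42, each smaller than the bound given above. The remaining ligands and homologues (Fgf6, Fgf11, Fgf14, Fgf17, Fgf21, Fgf22 and Fgf23) spanned 0.47 to 1.61 over the 8 arrays.

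**Figure D2:**
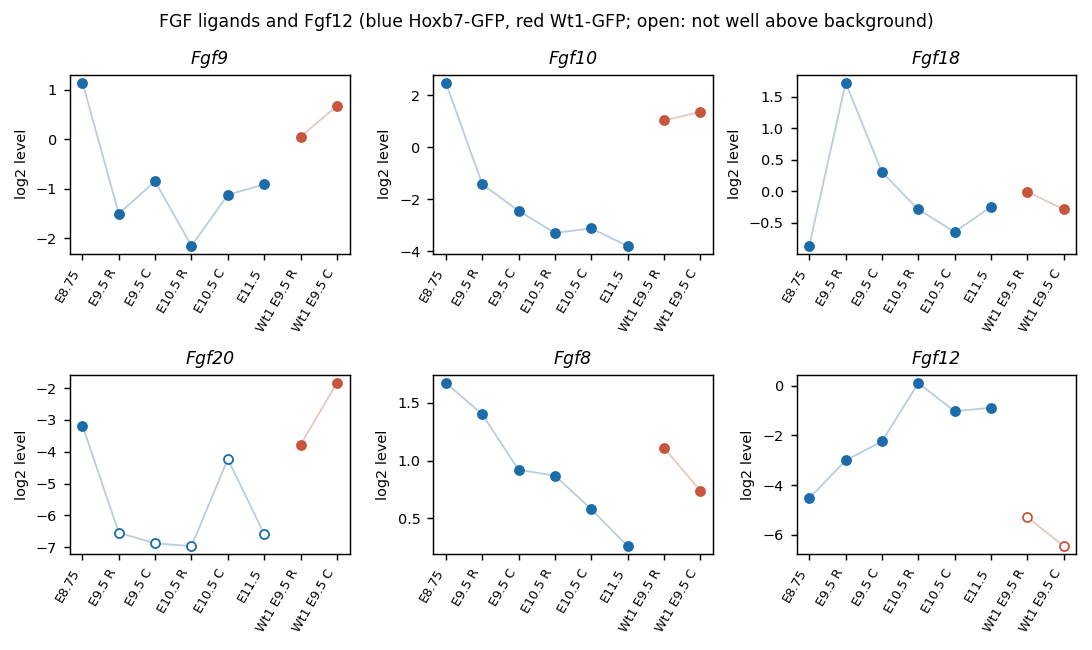
Log2 level of 6 FGF genes on each array, with the Hoxb7-GFP arrays in stage order (blue) left of the Wt1-GFP arrays (red) and open points where the probe was not well above background. Fgf10, Fgf9 and Fgf20 are lower in the duct than in the mesoderm at E9.5, and Fgf18 peaks at the rostral duct of E9.5.

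Fgfr2, whose epithelial form is needed for normal branching of the ureteric bud, was higher in the duct than in the mesoderm. Its level was 1.85 at E8.75, 2.30 and 2.76 at E9.5, 3.18 and 3.11 at E10.5 and 3.07 at E11.5, against 1.15 and 1.46 in the Wt1-GFP cells. The duct arrays all lay above the mesoderm arrays, and the 3 arrays of E10.5 and E11.5 differed by only 0.11. Hoxb7-GFP minus Wt1-GFP at E9.5 was 1.22 ± 0.24. The second probe of the gene gave 1.23, but it overlaps the first (mm9 chr7:137307455-137307514) and is not an independent reading. The array annotation used here does not tell the epithelial and mesenchymal forms of Fgfr2 apart.

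Fgfr4, a receptor best known from the liver, had -1.62 at E8.75, -0.15 and -0.37 at E9.5, 0.82 and 0.57 at E10.5 and 0.62 at E11.5, against -2.20 and -2.40 in the Wt1-GFP cells. The duct exceeded the mesoderm by 2.04 ± 0.20 and E9.5 exceeded E8.75 by 1.36 ± 0.24. Its second probe gave similar stage steps (1.33 and 0.96) but a reporter difference of -0.05. That probe read -2.78 and -3.24 in the duct of E9.5, against -0.87 in the rostral Wt1-GFP cells. In the caudal Wt1-GFP cells it was not well above background, at -5.07. The reporter difference of Fgfr4 therefore holds for 1 of 2 probes, and with normexp it was 1.20 on the brightest.

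Fgfr1 cannot be judged from its brightest probe, the T and G repeat shown above. The second probe, also above background on 8 arrays, ran from 3.77 to 4.89, with 4.89 and 4.41 in the rostral and caudal duct of E9.5, against 4.38 and 4.31 in the Wt1-GFP cells. The reporter difference was 0.30 on that probe and -0.53 on the third. The stretch of the third probe also has few distinct 3-base words (14, as few as 4.89% of probes). Fgfr3, the receptor known from cartilage, varied by 0.95 on its brightest probe, and its E9.5 minus E8.75 difference was -0.61 on that probe, against 1.02 and 0.44 on the others. No direction is therefore stated for Fgfr1 between reporters or for Fgfr3 between these stages. Between reporters, the 3 Fgfr3 probes all read lower in the duct (-0.62, -0.42 and -0.70), and the unadjusted p of the brightest was 0.0548 in limma.

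Fgfrl1, a receptor without a kinase domain that the mouse kidney needs, had 3.24 at E8.75, 2.11 and 2.33 at E9.5, 1.35 and 1.60 at E10.5 and 2.36 at E11.5, and 3.1 and 3.03 in the Wt1-GFP cells. It was lowest at E10.5 among the duct stages. E9.5 lay below E8.75 by -1.02 ± 0.26.

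**Figure D3:**
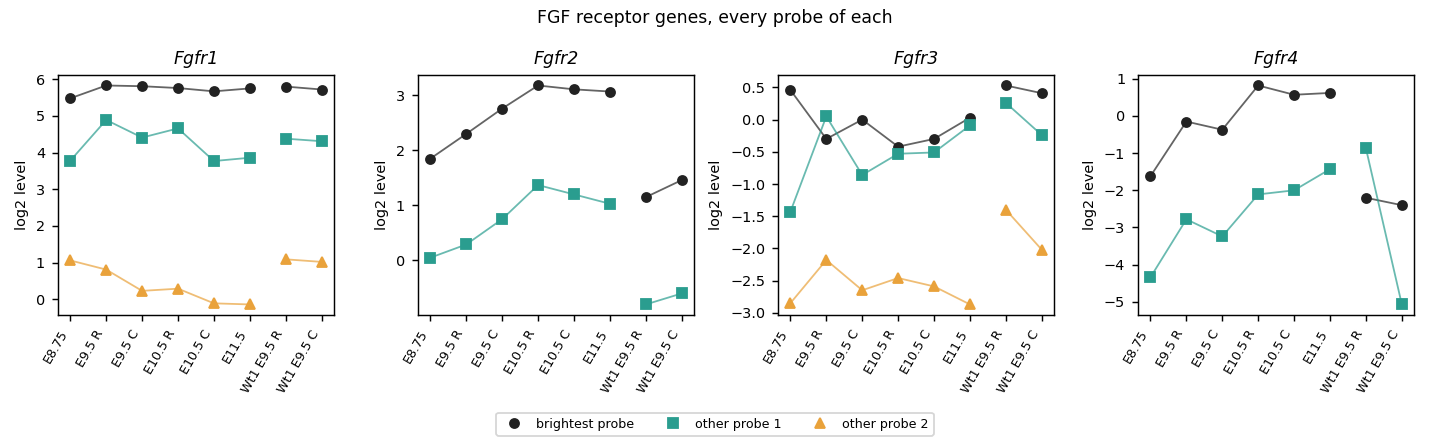
Log2 level of every probe of the 4 signalling FGF receptor genes on each array, with the Hoxb7-GFP arrays in stage order left of the Wt1-GFP arrays. The 2 overlapping probes of Fgfr2 run in parallel. Those of Fgfr4 part in the rostral Wt1-GFP cells, and those of Fgfr1 and Fgfr3 take different courses. Points are filled whether or not the probe was well above background.

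The adaptor Frs2, which couples the receptors to Ras, had 1.68 at E8.75, 0.59 and 0.98 at E9.5, 0.66 and 0.49 at E10.5 and 2.25 at E11.5, against 0.76 and 1.05 in the Wt1-GFP cells. The bud array of E11.5 lay above both E10.5 arrays, by 1.68 ± 0.30. The related Frs3 ranged from -2.37 in the rostral duct of E10.5 to -0.87 at E8.75.

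Spry1, the Sprouty inhibitor whose loss in mice gives extra ureteric buds, had 0.90 at E8.75, 1.55 and 2.56 at E9.5, 0.90 and 1.66 at E10.5 and 3.27 at E11.5, against 0.72 and 0.75 in the Wt1-GFP cells. The duct exceeded the mesoderm at E9.5 by 1.32 ± 0.33, E9.5 exceeded E8.75 by 1.16 ± 0.40, and E11.5 exceeded E10.5 by 1.99 ± 0.40. In the duct the caudal array was the higher of each pair. Spry2, another Sprouty inhibitor, had -0.45 and -0.11 in the duct of E9.5, against -0.65 and -1.35 in the Wt1-GFP cells, a difference of 0.72 ± 0.55 with an unadjusted p of 0.269 in limma. Spry4 was dim: it had -3.13 at E8.75, was well above background on the caudal array only at E9.5 (-4.26) and on neither array of E10.5, and reached -3.88 at E11.5, at least 1.47-fold above E10.5, while normexp gave a difference of 0.15.

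The 3 Spred genes, which block Ras activation, differed in their courses. Spred1 had 4.25 at E8.75, 2.50 and 3.47 at E9.5, 2.37 and 2.91 at E10.5 and 4.42 at E11.5, with 2.97 and 3.47 in the Wt1-GFP cells. Both ends of the duct series were thus high, with E9.5 below E8.75 by -1.26 ± 0.29 and E11.5 above E10.5 by 1.78 ± 0.29, and the second probe gave -1.06 and 0.98. Spred2 stayed between -0.09 and 1.11. Spred3 stayed between -1.36 and -0.48 in the duct, and read -3.64 in the rostral Wt1-GFP cells, against -0.66 in the caudal.

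Dusp6, the phosphatase that acts on ERK in the cytoplasm, had 5.21 at E8.75, 3.83 and 5.12 at E9.5, 4.48 and 4.83 at E10.5 and 5.84 at E11.5, with 4.10 and 5.33 in the Wt1-GFP cells. E11.5 exceeded E10.5 by 1.19 ± 0.41, whereas the reporters differed by -0.24 ± 0.34, within the error. Dusp4, a nuclear phosphatase of the same group, had 0.64 at E8.75, 0.58 and 0.80 at E9.5, -1.34 and -0.64 at E10.5 and -0.14 at E11.5, and the step to E10.5 was -1.68 ± 0.35.

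Etv1, an ETS transcription factor, had 0.93 at E8.75, -0.23 and 0.95 at E9.5, -3.75 and -0.98 at E10.5 and 0.26 at E11.5, against -0.55 and 0.21 in the Wt1-GFP cells. The rostral duct of E10.5 was the low array. E10.5 lay below E9.5 by -2.72 ± 0.59 and E11.5 above E10.5 by 2.62 ± 0.72. A second, dim probe, well above background on 3 arrays, gave -0.33 and 1.95 for these steps. At E9.5 it read -4.93 and -5.64, close to or below the lowest well-above level of any array (-4.97). It could therefore show little further drop and cannot decide the step to E10.5. The later step had the same direction on both probes. Il17rd (Sef), a membrane inhibitor of the pathway, had another course: it had 3.85 and 2.81 at E10.5 and 3.39 at E11.5.

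**Figure D4:**
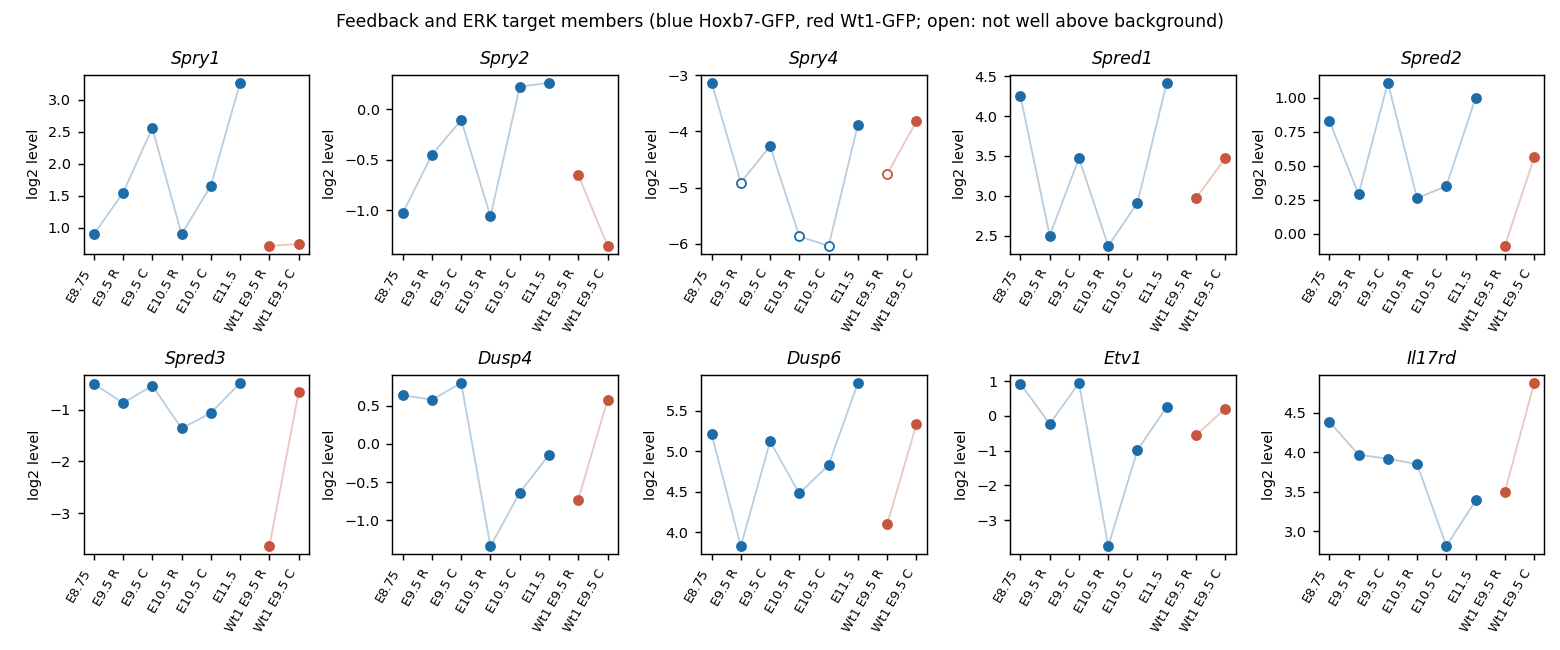
Log2 level of the 10 feedback and ERK target members on each array, with the Hoxb7-GFP arrays in stage order (blue) left of the Wt1-GFP arrays (red) and open points where the probe was not well above background. In 9 of the 10 panels the E11.5 point lies above both E10.5 points.

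Read as a group, 9 of the 10 feedback and ERK target members were higher in the E11.5 bud than on both E10.5 arrays. This was true of 36.7% of all tested names, and Il17rd was the exception. Spry2 counts among the 9 with 0.26, against 0.22 in the caudal duct of E10.5, and Spry4 was not well above background at E10.5. For 5 of the 10 (Spry4, Spred3, Dusp4, Etv1 and Il17rd), both E10.5 arrays lay below both E9.5 arrays, which was true of 17% of names. The nearest arrays of these stages read 3.85 and 3.92 for Il17rd and -1.06 and -0.87 for Spred3. On the second Etv1 probe the arrays overlapped, at levels too near background to decide. In 7 of the 10 the rostral array was below the caudal one in 3 of 3 pairs. Over all 34 tested members this held for 10, or 29.4%, against 16.1% of all names, and the reverse held for 4 (11.8% against 15.2%). These groupings were read off after the values were seen and carry no test.

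The pairs of Dusp6 differed by -1.29 in the duct of E9.5, -0.36 in the duct of E10.5 and -1.23 in the Wt1-GFP cells, all rostral minus caudal. Those of Etv1 differed by -1.18, -2.77 and -0.76, with a mean of -1.57 ± 0.48. Spred3 had a mean of -1.20 ± 0.67, to which the Wt1-GFP pair contributed -2.97. Spry2 had -0.34 and -1.28 in the duct pairs and 0.69 in the Wt1-GFP pair, and Il17rd had 0.04 and 1.05, against -1.38. The tests of whether the position difference itself differed between reporters gave unadjusted p-values of 0.106 for Spry2, 0.0665 for Il17rd and 0.00994 for Spred3, with adjusted p-values of 0.91, 0.87 and 0.814 in limma. The ligand Fgf21 and the adaptor Frs3, both read by probes with few distinct words, had duct minus mesoderm differences of -1.37 ± 0.76 and -1.48 ± 0.63 in their position effects.

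**Figure D5:**
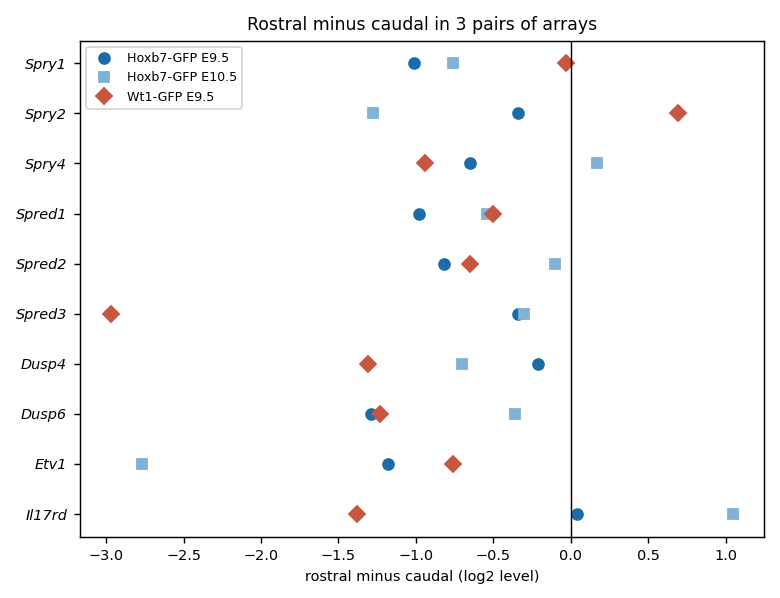
Rostral minus caudal log2 level of the 10 feedback and ERK target members in each of 3 array pairs, the Hoxb7-GFP pairs of E9.5 and E10.5 and the Wt1-GFP pair of E9.5. For Spry1, Spred1, Spred2, Spred3, Dusp4, Dusp6 and Etv1 all 3 points lie below 0.

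With groups of 1 or 2 arrays and 2 residual degrees of freedom (1 for position by reporter), limma called 0 of the 34 tested members, and 0% of the 29282 tested names, at adjusted p 0.05 in each of the 6 comparisons. The lowest adjusted p among members was 0.184 between reporters (Fgfr4), 0.202 for E9.5 minus E8.75 (Fgf10), 0.502 for E10.5 minus E9.5, 0.288 for E11.5 minus E10.5, 0.713 for position and 0.814 for position by reporter. At an unadjusted p under 0.05 the members numbered 9 between reporters (26.5%, against 13.6% of names), 10 for E9.5 minus E8.75 (29.4% against 16%), 9 for E10.5 minus E9.5 (26.5% against 7.48%), 8 for E11.5 minus E10.5 (23.5% against 12.6%), 5 for position (14.7% against 6.8%) and 1 for position by reporter (2.94% against 5.87%). The rostral and caudal parts stand in for replicates here, so these p-values measure only the spread left between the 2 parts after a common position effect.

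With a prior variance that follows intensity, limma called Fgfr4 and Fgfr2 higher (1.02% of names were called higher) and Fgf10 lower (1.34%) in Hoxb7-GFP than in Wt1-GFP cells, at adjusted p-values of 0.0324, 0.0473 and 0.036. It called Fgf10 and Fgf9 lower at E9.5 than at E8.75 (0.932% of names), at 0.0459 and 0.0466, and 0 members higher there (0.676%). In the other 4 comparisons it called 0 members, and of all names 1 was called, lower, for position by reporter (0.00342%). All 5 calls were lost without the caudal duct array of E9.5, without either array of E10.5, and with the slide part as a block. Without either E10.5 array the differences themselves were unchanged at -3.13, 1.22 and 2.04 for Fgf10, Fgfr2 and Fgfr4 between reporters and -4.43 and -2.31 for Fgf10 and Fgf9 between stages. Without the rostral duct array of E9.5 only the reporter call of Fgf10 was left, and the 3 reporter calls were reduced to Fgf10 without the rostral Wt1-GFP array and to 0 without the caudal one.

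By size and separation, a difference of at least 1 with no overlap of arrays, 6 members were higher (7.67% of names) and 3 lower (5.58%) between reporters at E9.5, 9 in either direction (13.3%). Counts for the later stage over the earlier one were 6 higher (11.3%) and 8 lower (11.2%) for E9.5 over E8.75, 14 in all (22.5%). For E10.5 over E9.5 they were 1 higher (4.58%) and 6 lower (4.4%), 7 in all (8.97%), and for E11.5 over E10.5 they were 6 higher (10.6%) and 1 lower (9.97%), again 7 in all (20.5%). For position, 0 were higher (3.31%) and 2 lower (1.39%), 2 in all (4.69%). For position by reporter, 3 were higher (9.29%) and 4 lower (12.2%) in Hoxb7-GFP than in Wt1-GFP pairs, and these 7 of 34 (20.6%) compare with 21.5% of names. The median difference over the 34 members was 0.06 between reporters, -0.42, -0.32 and 0.49 for the 3 stage steps and -0.15 for position, against -0.06, -0.05, -0.01, -0.02 and 0 over all names.

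The 8 arrays lay on 2 parts of a slide, the first with the E8.75, both E9.5 duct and the rostral E10.5 arrays and the second with the rest, so that neither part held both reporters at E9.5. The E10.5 pair was also split between the parts, so its rostral minus caudal differences cannot be told apart from a difference between parts. This holds for each gene read in that pair, whereas the E9.5 duct pair and the Wt1-GFP pair each lay within 1 part. With the part as a block the reporter difference was 2 for Fgfr4, 0.77 for Fgfr2, -2.61 for Fgf10 and 1.57 for Spry1. Both stages of the E9.5 minus E8.75 step lay in the first part. Within the second, E11.5 exceeded caudal E10.5 by 1.61 for Spry1, 1.51 for Spred1, 1.01 for Dusp6, 1.24 for Etv1 and 1.76 for Frs2. Within the first, rostral E10.5 minus rostral E9.5 was -3.52 for Etv1, -1.92 for Dusp4 and 3.13 for Fgf12.

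Other genes of the pathway came from 4 lists that do not overlap the members, and limma called 0 of their genes at adjusted p 0.05. Among 24 other ERK target and feedback genes, 15 were higher and 9 lower at E11.5 than at E10.5, with a median of 0.52 against -0.02 over all names. Etv5 differed by 1.76 ± 0.27 and Etv4 by 2.24 ± 0.39, both ETS factors that act downstream of Ret in the bud. Etv4 had 4.82 at E8.75, 2.92 and 4.33 at E9.5, 1.53 and 3.70 at E10.5 and 4.85 at E11.5, against 1.37 and 2.65 in the Wt1-GFP cells, so it too was lower rostrally in 3 of 3 pairs. Ret itself had -0.14 and 1.85 in the rostral and caudal duct of E10.5, and its co-receptor Gfra1 had -0.59 and 1.46.

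The 24 measured genes of the ERK cascade core differed by a median of -0.10 between reporters (8 higher, 16 lower), against -0.06 over all names. By the rule of size and separation 0 of them were called, against 13.3% of all names. For E9.5 minus E8.75, 20 of the 24 were lower, with a median of -0.56 against -0.05 over all names. Among them was the exchange factor Sos2 at -1.41 ± 0.27. Of 29 co-receptor and heparan sulphate genes, 11 were higher and 18 lower between reporters. The sulphotransferase Hs6st2 had 1.23 and 0.77 in the duct of E9.5, against 3.27 and 3.25 in the Wt1-GFP cells (-2.26 ± 0.24), while Hs6st1, which adds the same sulphate, was higher in the duct (1.57 ± 0.32). Of 22 other receptors that feed ERK, 14 were higher and 8 lower in the duct, with Ret at 6.30 ± 0.49, Met at 3.26 ± 0.36 and Kit at 2.37 ± 0.39, and with Pdgfra, a receptor of mesenchyme, at -3.28 ± 0.48.

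Promoters were searched for an ETS core, the site class that Etv factors bind, as Etv genes are among the members. The core was CCGGAA on either strand (TTCCGG), within 250 bases before to 30 after the gene start in RefSeq on GRCm38.p6. It was found in 5 of the 30 member genes with a promoter in the table (16.7%), against 16% of 27025 genes, and in 0 of the 8 feedback and ERK target genes that matched. The 5 were Fgf5, Fgf12, Fgfr4, Fgfrl1 and Frs2. Fgfr4 and Frs2 are shown because Fgfr4 had the lowest p between reporters and Frs2 holds 2 cores. Capitals mark the cores.
Fgfr4 promoter (GRCm38.p6 chr13:55152568-55152847, + strand): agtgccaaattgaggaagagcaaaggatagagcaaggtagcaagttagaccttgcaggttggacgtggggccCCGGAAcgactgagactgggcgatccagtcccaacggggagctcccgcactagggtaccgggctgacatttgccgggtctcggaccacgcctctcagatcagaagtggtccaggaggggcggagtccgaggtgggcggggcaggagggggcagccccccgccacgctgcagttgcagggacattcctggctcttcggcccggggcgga
Frs2 promoter (GRCm38.p6 chr10:117148445-117148724, - strand): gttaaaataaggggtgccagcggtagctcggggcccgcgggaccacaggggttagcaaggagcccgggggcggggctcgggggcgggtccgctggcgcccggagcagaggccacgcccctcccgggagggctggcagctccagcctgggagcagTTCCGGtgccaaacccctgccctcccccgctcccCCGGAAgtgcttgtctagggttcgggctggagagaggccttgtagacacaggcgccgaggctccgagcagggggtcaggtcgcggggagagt
A match is a description of these letters and says nothing of binding.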

How the data were processed

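Gene expression was measured on 8 Agilent 1-colour arrays. Per the file headers, the intensity the authors deposited for a spot is its processed signal, from Agilent Feature Extraction 10.7.3.1. The deposited series matrix holds log2 values, which equal the log2 level used here centred on each probe's median (r = 1). Its scale was found from the values, and it served as an alternative.

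Spots called outliers were dropped, repeated spots were averaged (55663 probes), and log2 of the 75th percentile (232.3 to 305.8) was subtracted from each array. Names well above background on at least 1 array were tested with limma 3.58.1 in R 4.3.3, with 5 group terms and a position term, adjusted by Benjamini-Hochberg over all 29282 names. A stage held by a single array borrows its spread from the divided groups. A fold against a group not well above background is a bound, taking for each dim array its lowest well-above level (-4.97 to -3.89) or the probe's own level where higher.

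Described at length were members with a difference of at least 1 and no overlap of arrays, the 4 receptors, and Spry1, Spry2, Spry4 and Dusp6, and up to 4 genes of a list by p. Fgf8 and the dim or flat members were added after their values were seen. The members and lists were chosen with earlier results of these data known. The fit was tested on simulated data, where it recovered the differences put in but called none of the changed names, so an absence of calls does not show an absence of differences. Alternatives changed the variance prior, normalization, background correction, filter, floor, probes, position term, slide part, source and arrays. The number of arrays limits the precision.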

Additional observations from a re-analysis of the deposited data

How the results depend on the processing

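With an intensity trend, limma called 3 members between reporters and 2 for E9.5 minus E8.75 instead of 0. Under that prior, leaving out 1 array at a time gave 0 to 3 and 0 to 2 calls, and with the slide part as a block or after quantile normalization both were 0, alternatives added after seeing the data. With normexp background correction the counts at adjusted p 0.05 were 1 between reporters (of 183 names called) and 2 for E9.5 minus E8.75 (of 99), and the counts by size and no overlap were 7 for E9.5 minus E8.75 (instead of 14), 4 for E10.5 minus E9.5 (instead of 7) and 0 for position (instead of 2). Over all names these counts were 2270 (instead of 6595), 555 (instead of 2628) and 150 (instead of 1374). With the mean of all probes the position count was 1. Leaving out 1 array at a time gave 0 calls at adjusted p 0.05 throughout. By size it gave 9 to 11 members between reporters, 11 to 14 for E9.5 minus E8.75, 7 to 11 for E10.5 minus E9.5 (11 without the rostral E10.5 array), 7 to 10 for E11.5 minus E10.5 and 1 to 7 for position (7 without either E9.5 duct array, 1 without either Wt1-GFP array). With fewer arrays or pairs, no overlap is easier to meet for any name. A higher count here is therefore not read as a result about the members.

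Of 730 values of the 46 member differences described, 674 kept direction and size of at least 1 without overlap, 53 kept only direction and 3 reversed. The reversed ones were the reporter difference of Fgf15, -0.25 with floored values and -2.27 with the slide part as a block, and the position-by-reporter difference of Etv1, 0.46 with the mean of all probes, and the cause was not tested. Many of the 730 values could not differ from the main ones. The intensity trend and the changed detection filters use the same levels, and the centring of the deposited matrix cancels in a difference. Leaving out an array outside a comparison also leaves its difference as it was. The 674 is therefore not a measure of robustness. No paired analysis was possible because the labels carry no replicate numbers, although the position term of the fit already matches rostral with rostral and caudal with caudal arrays. The interaction was not refitted with an array left out, and could not be refitted with the slide part as a block. Leaving out E8.75 or E11.5 gives no value for their own step.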
